A study of Mus musculus with 9 samples.

Results

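The 39 genes described here encode proteins of homologous recombination, the Fanconi anaemia pathway and the DNA damage checkpoint, together with 5 proteins of base excision, mismatch and direct repair. They were picked by gene symbol, by a rule that used no measured value although earlier results of these data were known, and all 39 were found among the 29069 genes of the deposited table. All 39 also exceeded the minimum mean of 5 normalised counts that left 18156 genes for testing, with a lowest member mean of 161.3. Total RNA was sequenced after ribosomal RNA depletion from mouse embryonic stem cells (mESC) of the mES-D3 line, a single line that had been adapted to grow without feeder cells. Each medium was applied for 24 h and had 3 samples, each taken from its own dish. Ground state medium (GS) was N2B27 with LIF at 20 ng/mL, the MEK inhibitor PD0325901 at 1 μM and the GSK-3 inhibitor CHIR99021 at 3 μM. Differentiation medium (DM) was DMEM with 10% fetal bovine serum and none of these inhibitors. NO medium was DM plus 250 μM of the nitric oxide donor DETA/NO. Comparisons are written as ratios: NO/DM isolates the donor, while DM/GS and NO/GS also change base medium, serum, inhibitors and LIF.

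Homologous recombination mends a broken chromosome by copying the intact sister chromatid. The broken ends are trimmed to single strands, BRCA1 and BRCA2 with their partners prepare these strands, and the matching sequence is then searched for and invaded. The kinases ATM and ATR report the damage and halt the cell cycle through CHK2 and CHK1, and the Fanconi anaemia proteins bring the same machinery to crosslinked DNA. Embryonic stem cells divide rapidly, spend much of their cycle in DNA synthesis and depend on this route for double-strand breaks.

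Values are normalised counts, read counts per gene that the authors scaled between samples and rounded. Differences are log2 fold changes of normalised count + 1 from limma with Benjamini-Hochberg adjustment over all 18156 genes, and a call means an adjusted p-value under 0.05. The value of 1 read, read from the steps between low values, put the 9 libraries at an estimated 14.3 M to 27.1 M assigned reads. All 8 pluripotency markers examined were present in every sample, with Pou5f1 between 4276 and 15354. The replicate 2 library of NO stood apart: its summed pluripotency markers were 47015 against 76590 and 79008 in the other NO libraries. In that library 13 p53 target genes summed to 81151, against 37393 and 49512. Of 6 primitive endoderm markers, 4 were high enough to test, and the 6 summed to 539 in that library, against 200 and 287 in the other NO libraries and 96 to 167 in DM and GS. Of these, Foxa2 stayed between 0 and 5 in all libraries, and Sox7 between 1 and 12. The 6 trophoblast markers summed to 1535 to 1562 in GS, 929 to 1106 in DM and 1203 to 2101 in NO, with Elf5 at 2 to 13. Fibroblast markers summed to 312 to 493 in all libraries, with Postn at 0 to 2. The part of these differences in the results on the 39 genes was not tested. Counts of called members are also given without the replicate 2 library of NO, while other counts of members use all libraries. In bulk RNA, fewer cells of a type and less RNA per cell cannot be told apart.

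Of the 39 genes, 7 passed the threshold in at least 1 comparison and 32 in none. In DM/GS 1 gene was called and it was lower (Fancm), against 6.69% of all genes tested, 4.37% higher and 2.32% lower. In NO/GS 5 were called, 2 higher (Mgmt, Xrcc1) and 3 lower (Fancm, Trp53bp1, Nbn), against 20.0% of all genes, 13.4% higher and 6.64% lower. In NO/DM 3 were called, 1 higher (Fancm) and 2 lower (Parp1, Fance), against 14.2% of all genes, 9.01% higher and 5.24% lower. The called share of the 39 genes was thus 2.56%, 12.8% and 7.69%, below the share of all genes in each comparison. These shares rest on 1, 5 and 3 genes, and their difference from all genes was not tested. Without DM replicate 2 the share in DM/GS was 5.13%, above the 3.79% of all genes. Without the replicate 2 library of NO, 3 members were called in DM/GS, 3 in NO/GS and 0 in NO/DM by limma, against 10.6%, 13.5% and 7.32% of all genes. An F test over the 3 media called 7 of the 39 genes, against 23.3% of all genes, namely Fancm, Trp53bp1, Mgmt, Parp1, Fance, Fancg and Xrcc1.

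Changes of at least 2-fold that were also called were limited to Fancm in DM/GS (4.2% of all genes) and Mgmt in NO/GS (11.7% of all genes). In NO/DM no member was both called by limma and changed at least 2-fold (8.55% of all genes), while 10 members (25.6%) had an unadjusted p-value under 0.05, against 31.3% of all genes. With limma's vooma weights the calls in NO/DM were the same 3 genes, none of them 2-fold. For 33 of the 39 genes the 95% interval of the log2 fold change stayed within 2-fold in all 3 comparisons. By comparison, the share with such an interval was 94.9% in DM/GS, 89.7% in NO/GS and 87.2% in NO/DM for the 39 genes, against 56.1%, 50.7% and 52.5% of all genes tested. These sets differ in level: every member had a mean of at least 161.3, whereas 12395 of the 18156 genes tested had a mean above 50. Intervals are wider at low counts, and genes of matched level were not compared.

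**Figure D1:**
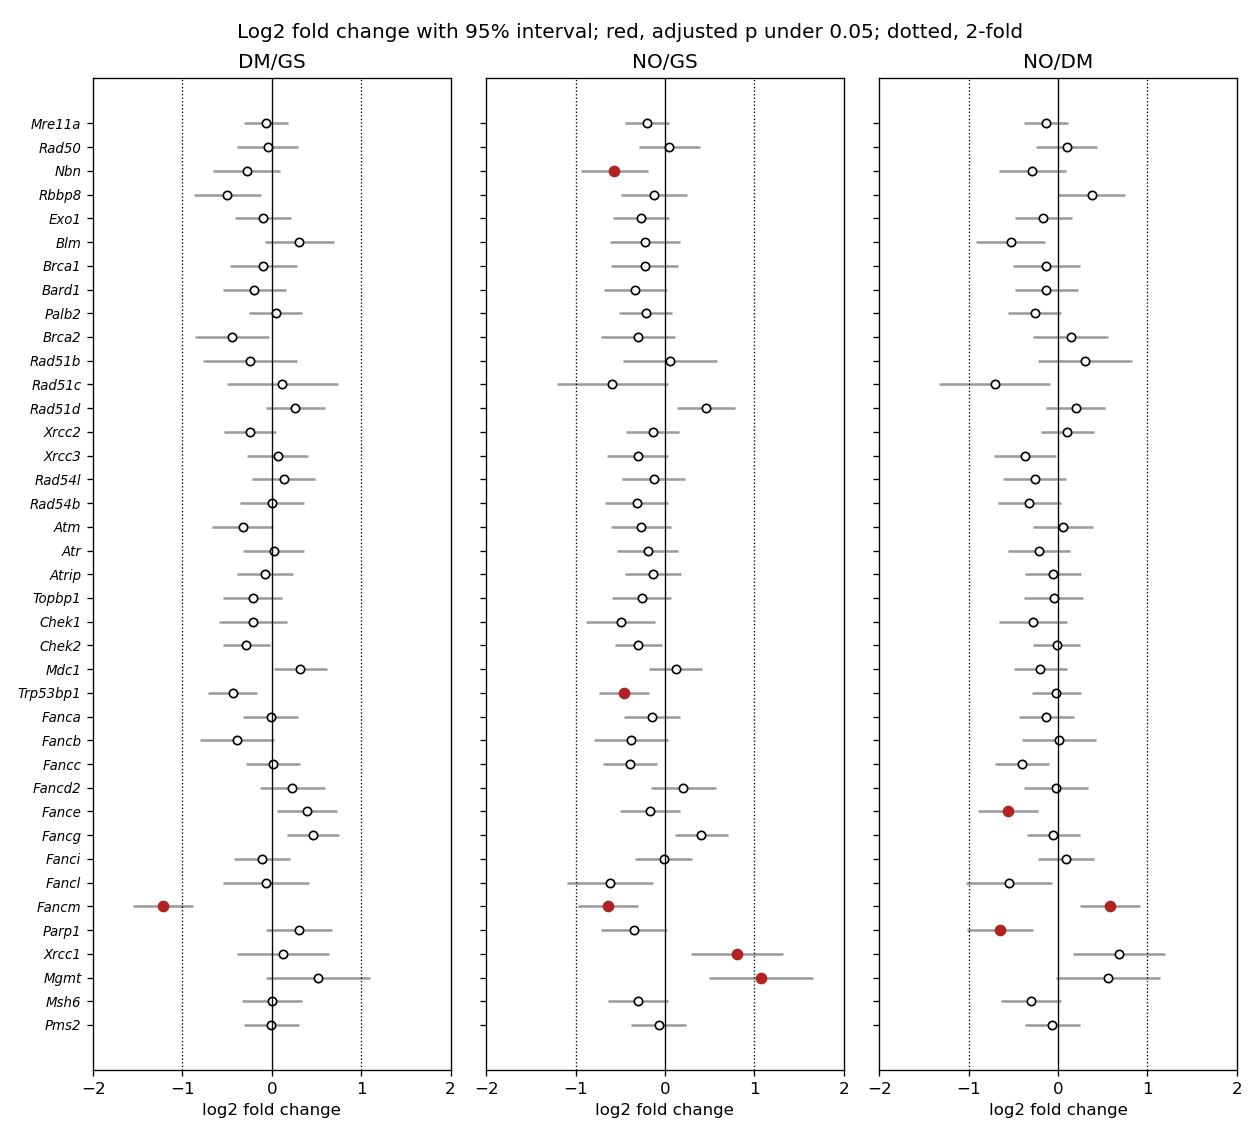
Log2 fold change (x axis) of each of the 39 genes (y axis, ordered by role) in DM/GS, NO/GS and NO/DM, with 3 samples per medium. Circles are the fold changes, bars the 95% intervals, red circles have an adjusted p-value under 0.05 and dotted lines mark 2-fold. Most intervals lie between the dotted lines, and Fancm in DM/GS, at -1.22, lies outside them.

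Some genes separated the 3 samples of one medium from the 3 of the other without passing the threshold. The groups did not overlap for 11 members in DM/GS (29.6% of all genes), 19 in NO/GS (39.1% of all genes) and 9 in NO/DM (33.4% of all genes). In NO/GS, 15 of the 19 were lower in NO and 4 were higher, a split that was not counted over all genes. The median log2 fold change of the 39 genes was -0.22 in NO/GS, against -0.02 over all genes tested. There 31 of the 39 lay below 0, against 9309 of all 18156 genes. The median of the 39 genes was -0.13 in NO/DM (27 of 39 below 0) and -0.05 in DM/GS (23 of 39 below 0). Over all genes these medians were 0.001 and -7e-04, with 9056 and 9098 genes below 0. With quantile normalisation the median of all genes in NO/GS itself moved to -0.11 and that of the 39 genes to -0.12. With equal totals the same medians were 0.09 and -0.11, and without the replicate 2 library of NO the median of the 39 genes was -0.15. In NO/DM the median of the 39 genes was -0.04 without the replicate 2 library of NO, -0.07 without DM replicate 1 and -0.09 without DM replicate 2 or NO replicate 3. Under quantile normalisation it was -0.05, against -0.08 over all genes. With equal totals it was -0.05 with 20 of 39 below 0, against 0.08 over all genes. In DM/GS the median of the 39 genes was -0.01 without GS replicate 3 or DM replicate 3 and -0.08 without GS replicate 1 or DM replicate 1. It was -0.02 with either scaling, against -0.02 over all genes with quantile normalisation and 0.03 with equal totals.

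Within NO, the replicate 2 library held the lowest of the 3 values for 26 of the 39 genes (66.7%, against 37.1% of all genes tested) and the highest for 9 (23.1%, against 41.8%). The summed level of the 39 genes was 94284 to 105825 in GS, 88970 to 105342 in DM and 80062 to 92400 in NO. The lowest NO sum belonged to replicate 2 and the lowest DM sum to replicate 3, and the NO range overlapped that of DM but not that of GS. As a percentage of each library's total, however, NO (0.4309 to 0.5052) overlapped GS (0.4785 to 0.516). Msh6 and Parp1, the members with the highest counts, weigh most in these sums.

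**Figure D2:**
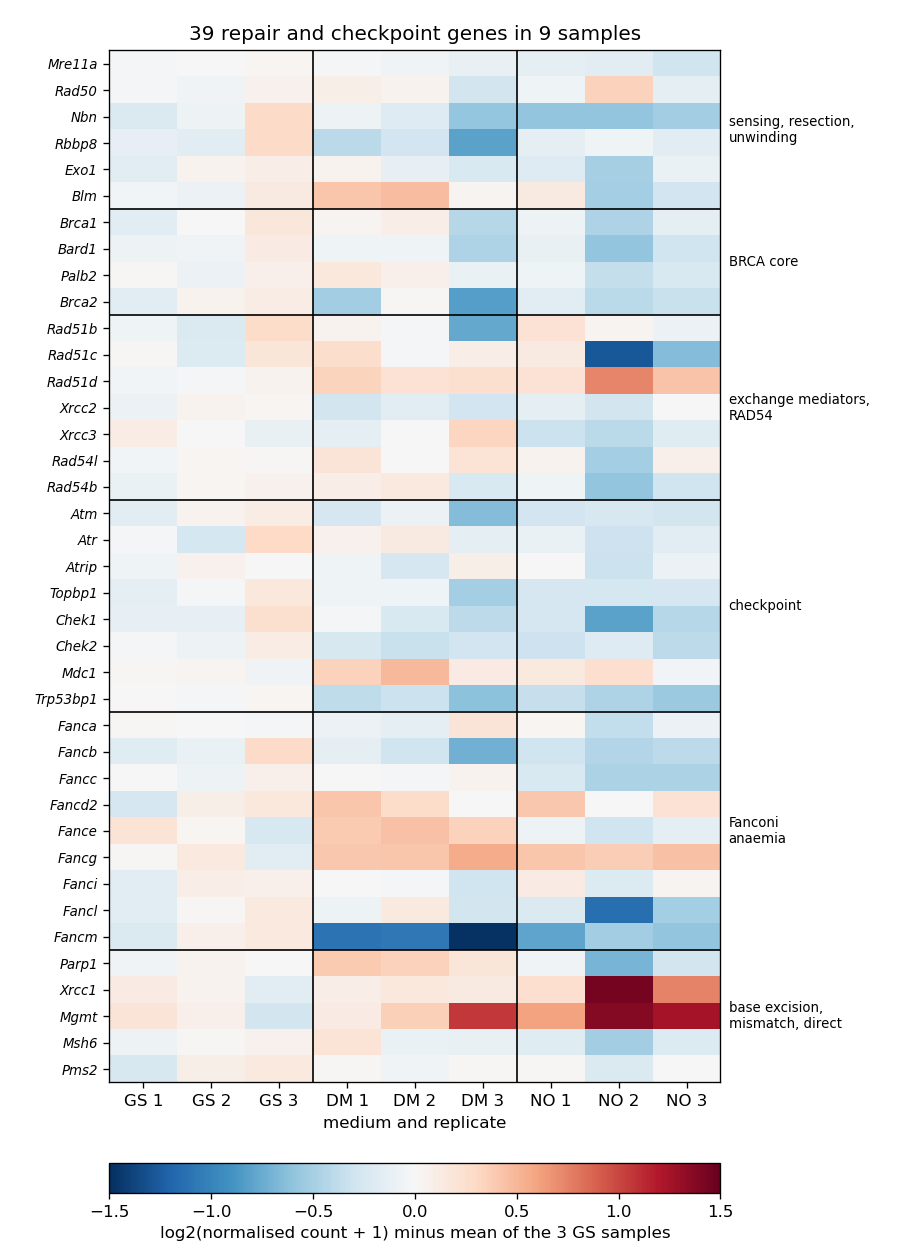
Heat map of the 39 genes (rows, grouped by role) in the 9 samples (columns, 3 replicates each of GS, DM and NO). Colour is log2(normalised count + 1) minus the mean of the 3 GS samples, red for higher and blue for lower, on a scale that ends at 1.5 in both directions. Fancm is blue throughout DM, Mgmt and Xrcc1 are red in NO, and the column of NO replicate 2 is deepest red for Xrcc1 and Mgmt and deepest blue for Rad51c and Fancl.

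Expression differed far more between the genes than between the media. Per kilobase of exon in GS, the highest members were Msh6 at 4138 normalised counts, which recognises mismatched bases, and Parp1 at 3000, which senses strand breaks and builds poly(ADP-ribose) chains. They were followed by the ATR activator Topbp1 at 631.2 and by Brca1 at 577.1. The lowest were Rad51b, which assists strand exchange, at 44.54 and Fancc, a subunit of the Fanconi anaemia core complex, at 53.08. Exon length here joins the exons of all annotated transcripts, 8.36 kb for Fancc, so ranks depend on the annotation. Before this division Rad51b was still lowest in GS, at a mean of 167.3. Fancc, at 443.7, then lay above Mgmt at 253.3 and Rad51c at 400.7, among others. Exons of some members overlap those of other genes, most on the same strand for Rad54b, with 2068 bases of Fsbp, and Atrip, with 1147 bases of Trex1. Per the study methods, reads that overlapped several genes were left out, so the levels of such members are less certain and may be understated.

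The promoters were searched for a feature that genes of DNA synthesis and repair often carry, the binding motif of E2F factors, which drive genes of the S phase. RefSeq windows (GRCm38.p6, 250 bases before to 50 after a start) matched 31 of the 39 genes by symbol. The words TTTGGCGC, TTTCCCGC, TTTGCCGC and TTTCGCGC were looked for on both strands. They occurred in 8 of the 31 genes (25.8%), against 2.6% of 27025 genes with a window and 4.43% of 10950 protein-coding genes tested. The 8 were Bard1, Brca2, Rad51c, Topbp1, Chek2, Mdc1, Fancg and Msh6, from 5 of the 6 role groups, and none of them was called in a pairwise comparison. The 6 below have the word before the start and are shown because 5 of them share the letters TTTCCCGC, while Topbp1 has TTTCGCGC. Each is written in the direction of the gene with the word in capitals, which reads as its reverse complement where the word lies on the other strand.
Bard1 (chr1:71103163-71103192, minus strand): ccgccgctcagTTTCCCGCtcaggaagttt
Brca2 (chr5:150522442-150522471, plus strand): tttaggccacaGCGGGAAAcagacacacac
Topbp1 (chr9:103305187-103305216, plus strand): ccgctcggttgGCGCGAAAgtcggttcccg
Chek2 (chr5:110839820-110839849, plus strand): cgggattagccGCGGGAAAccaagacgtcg
Mdc1 (chr17:35841471-35841497, plus strand): tcttcagcctgTTTCCCGCcggtagcc
Fancg (chr4:43010335-43010364, minus strand): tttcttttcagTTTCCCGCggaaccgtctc
The shorter word CCAAT, searched for in the same way, was in 19 of the 31 genes (61.3%), against 41.1% of all genes with a window and 42.8% of protein-coding genes tested. These are matches of letters, and binding of any factor was not measured.

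Break sensing begins with the MRE11, RAD50 and NBS1 complex, which holds broken ends and activates ATM. Nbn, which encodes NBS1 (ENSMUSG00000028224, GRCm38 chromosome 4, 15957925 to 15992589, plus strand), stood in GS at 723, 795 and 1021 normalised counts and in DM at 797, 732 and 562. In NO it had 556, 556 and 581. The 3 NO samples lay close together below all GS samples, and the GS samples spread more widely, with replicate 3 highest. Nbn was lower in NO/GS by a log2 fold change of -0.57 ± 0.17 (SE, n = 3 per medium, limma adjusted p = 0.0373). The call was held in 11 of 21 alternative analyses and was lost without GS replicate 2 or 3, DM replicate 2 or any 1 NO library. It was also lost with equal totals, without a minimum mean, without the mean-variance trend and with replicate number as a block. Its partners Mre11a and Rad50 ranged over all 9 samples from 1738 to 2179 and from 1387 to 2139 and were not called. For Mre11a the 3 media did not overlap although they differed little, with log2 fold changes of -0.07 in DM/GS and -0.20 in NO/GS.

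Resection and unwinding of the ends is carried out by CtIP, encoded by Rbbp8, the nuclease EXO1 and the helicase BLM. Rbbp8 had 916, 888 and 1219 in GS, 751, 819 and 571 in DM and 904, 957 and 892 in NO. All DM values lay under all GS and NO values, but the log2 fold change of -0.50 ± 0.17 in DM/GS was not called (limma adjusted p = 0.116). Blm had 2935, 2834 and 3302 in GS, 4035, 4156 and 3107 in DM and 3308, 2121 and 2467 in NO, so that DM and NO overlapped (log2 fold change -0.53 ± 0.18, limma adjusted p = 0.0661). Exo1 ranged from 1631 to 2474.

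The BRCA core, in which BRCA1 and BARD1 form a ubiquitin ligase and PALB2 joins BRCA1 to BRCA2, gave no call in any comparison. The unadjusted p-value was under 0.05 for 1 of its 4 genes in DM/GS and for none in the other comparisons. All 4 had a log2 fold change below 0 in NO/GS, between -0.33 (Bard1) and -0.22 (Palb2). Brca1 ranged from 3567 to 5506, Bard1 from 1348 to 2221 and Palb2 from 787 to 1123. Brca2 had 3468, 3984 and 4150 in GS, 2681, 3898 and 2172 in DM and 3425, 2925 and 3047 in NO. Its DM samples spread from the lowest value of all to a value inside the GS range, and the log2 fold change in DM/GS was -0.45 (95% interval -0.86 to -0.03, limma adjusted p = 0.217).

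Rad51b, Rad51c, Rad51d, Xrcc2 and Xrcc3, which assist strand exchange, and the RAD54 translocases, which help in invasion of the sister duplex, were not called either. Rad51d came nearest, with 516, 521 and 550 in GS, 666, 616 and 625 in DM and 614, 882 and 713 in NO. All DM and all NO values lay above all GS values, and NO/GS gave 0.46 ± 0.15 (limma adjusted p = 0.0506). Of 21 alternatives, 6 called it, among them quantile normalisation and equal totals. Rad51c had 404, 346 and 452 in GS, 478, 395 and 428 in DM and 439, 165 and 254 in NO. Its replicate 1 of NO lay within the GS range while the other NO samples lay below it, and the 95% interval in NO/GS reached from -1.21 to 0.03. Rad51b ranged from 97 to 200, Xrcc2 from 498 to 631, Xrcc3 from 369 to 613, Rad54l from 1360 to 2224 and Rad54b from 618 to 1028.

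Among the 8 checkpoint genes, Trp53bp1 was the 1 called. It encodes 53BP1, which binds chromatin around breaks, restrains resection and favours end joining. Trp53bp1 (ENSMUSG00000043909, GRCm38 chromosome 2, 121193281 to 121271407, minus strand) had 2416, 2359 and 2475 in GS, 1857, 1936 and 1574 in DM and 1907, 1746 and 1641 in NO. The GS samples lay close together above all others, and DM and NO overlapped. It was lower in NO/GS by -0.46 ± 0.13 (limma adjusted p = 0.0268), and DM/GS gave -0.44 ± 0.13, which missed the threshold (limma adjusted p = 0.0643). The difference between NO and DM was -0.02 (95% interval -0.29 to 0.26). The NO/GS call held in 14 of 21 alternatives and was lost without any 1 GS library, without NO replicate 3, with quantile normalisation and with equal totals. Its exons share 2130 bases with Tubgcp4 on the opposite strand, and use of strand in counting is not given in the sources used here. Per the study methods, reads that overlapped several genes were left out, so reads from shared bases may be missing from its count.

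The ATR effector kinase Chek1 had 1786, 1772 and 2298 in GS, 1912, 1656 and 1471 in DM and 1632, 1107 and 1435 in NO. All NO values lay below all GS values, yet NO/GS, at -0.50 ± 0.17, was not called (limma adjusted p = 0.0658). The ATM effector Chek2 had non-overlapping groups in both comparisons with GS, at 1548 to 1760 in GS, 1297 to 1387 in DM and 1246 to 1429 in NO, with log2 fold changes of -0.28 and -0.30 that were not called. Mdc1, a scaffold that reads phosphorylated histone H2AX, was between 2842 and 4119, with all 3 DM samples above all GS samples and no call. The kinases Atm and Atr ranged from 1724 to 2923 and from 1404 to 2139, the ATR partner Atrip from 636 to 850 and Topbp1 from 4945 to 7904.

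Fancm showed the smallest adjusted p-value of all 39 genes and was the only one called in all 3 comparisons. It encodes the translocase that recognises stalled replication forks and anchors the Fanconi anaemia core complex to DNA. Fancm (ENSMUSG00000055884, GRCm38 chromosome 12, 65075603 to 65132058, plus strand) had 4188, 5122 and 5406 in GS, 2261, 2324 and 1749 in DM and 2817, 3395 and 3224 in NO. No values overlapped between media, with GS highest, NO between and DM lowest. DM was at 0.43 of GS (log2 fold change -1.22 ± 0.16, limma adjusted p = 0.000774), a call that held in 21 of 21 alternatives. NO was at 0.64 of GS (-0.64 ± 0.16, limma adjusted p = 0.0147) and lay above DM by 0.58 on the log2 scale (± 0.16, limma adjusted p = 0.0302). The NO/GS call was lost without GS replicate 2 or without GS replicate 3, and the NO/DM call held in 13 of 21 alternatives and was lost without GS replicate 2, NO replicate 2, NO replicate 3 or any 1 DM library. Its exons share 163 bases with Gm47869 and 575 with Gm47870, both on the opposite strand. The 150 bases before its RefSeq start are shown because no other called gene that was lower had an adjusted p-value as small. They hold 1 CCAAT word, in capitals, and 59.3% G or C.
Fancm (GRCm38.p6, chr12:65075453-65075602, plus strand): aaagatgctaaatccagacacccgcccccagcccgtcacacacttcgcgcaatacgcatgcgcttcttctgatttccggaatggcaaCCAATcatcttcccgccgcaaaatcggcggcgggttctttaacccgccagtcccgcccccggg

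**Figure D3:**
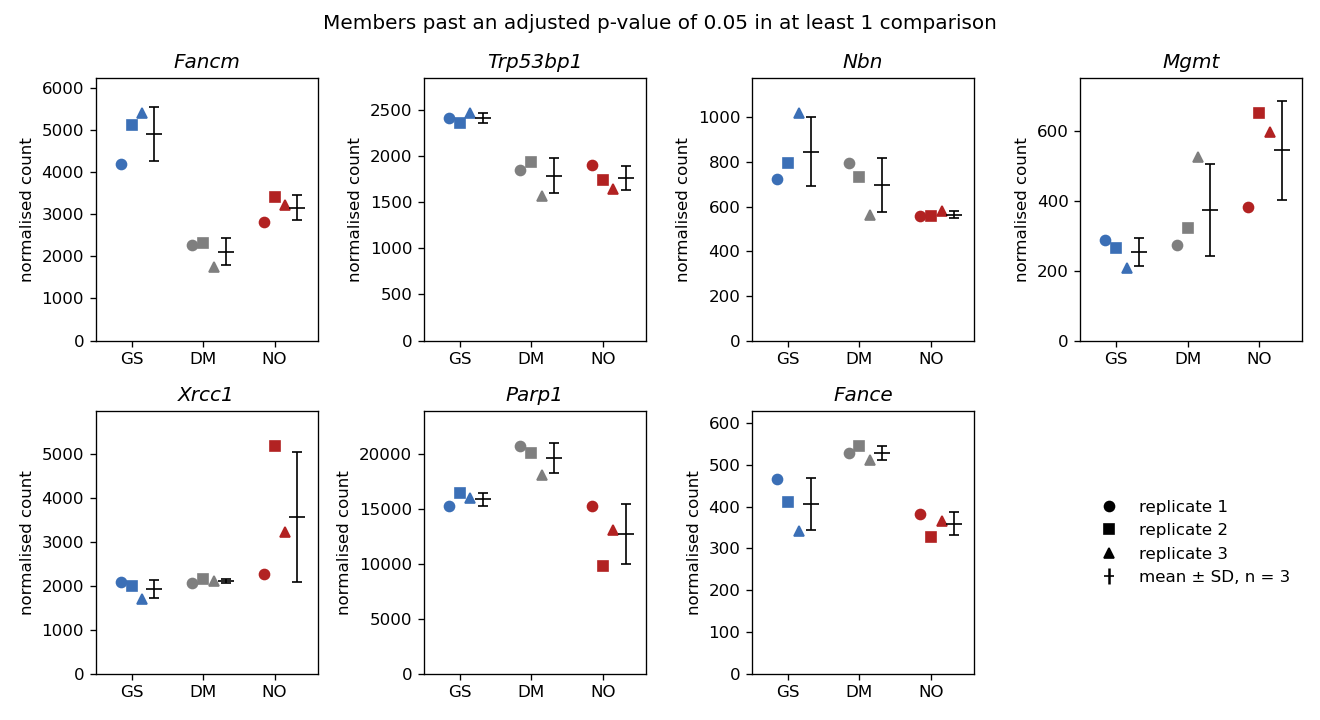
Normalised counts (y axes from 0) of the 7 genes called in at least 1 comparison, by medium (x axis: GS, DM, NO). Symbols mark replicate 1 (circle), 2 (square) and 3 (triangle), and the black bar is the mean ± SD of the 3 samples. Fancm separates all 3 media, Trp53bp1 separates GS from the others, and the NO samples of Xrcc1 reach from 2275 to 5189.

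Other Fanconi anaemia genes moved less and not in a common direction. Fance, a core complex subunit that contacts FANCD2, had 466, 411 and 341 in GS, 529, 546 and 512 in DM and 382, 328 and 365 in NO. All DM values lay above all others, and GS and NO overlapped. Fance (ENSMUSG00000007570, GRCm38 chromosome 17, 28313519 to 28326572, plus strand) was lower in NO/DM by -0.56 ± 0.15 (limma adjusted p = 0.0327). That call held in 12 of 21 alternatives and was lost without GS replicate 2, NO replicate 2, NO replicate 3 or any 1 DM library. Equal totals, no mean-variance trend and a fit of only the 6 samples compared ended it as well. Fancg, also of the core complex, had 506, 551 and 443 in GS, 658, 664 and 735 in DM and 664, 645 and 675 in NO. DM and NO lay above every GS sample, and neither difference passed, at 0.46 (limma adjusted p = 0.0679) and 0.41 (limma adjusted p = 0.0522), although the F test over the media did (limma adjusted p = 0.046).

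Fancl, the ubiquitin ligase subunit, had 460, 520 and 568 in GS, 488, 569 and 425 in DM and 444, 235 and 360 in NO. Its NO samples lay below all GS samples and overlapped DM, with -0.62 ± 0.22 in NO/GS (limma adjusted p = 0.069). Fancc had 442, 422 and 467 in GS, 443, 439 and 461 in DM and 379, 318 and 320 in NO. All NO values of Fancc were under all others, and neither NO/GS (-0.39, limma adjusted p = 0.0686) nor NO/DM (-0.40, limma adjusted p = 0.0723) was called. The pair Fancd2 and Fanci, whose products clamp DNA once ubiquitin is attached, ranged from 1588 to 2517 and from 1834 to 2452, Fanca from 2047 to 3026 and Fancb from 241 to 486.

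Mgmt had the largest rise of the 39 genes in NO/GS with all libraries fitted. It encodes the methyltransferase that removes alkyl groups from guanine by direct transfer to itself. Mgmt (ENSMUSG00000054612, GRCm38 chromosome 7, 136894614 to 137130266, plus strand) had 287, 265 and 208 in GS, 274, 322 and 524 in DM and 383, 652 and 596 in NO. All NO values exceeded all GS values, while DM overlapped both, with its replicate 3 inside the NO range. NO/GS gave 1.07 ± 0.26, a 2.11-fold rise (limma adjusted p = 0.0154), which held in 19 of 21 alternatives and was lost without GS replicate 3 or NO replicate 3. Without NO replicate 2 it was 0.93, under 2-fold (limma adjusted p = 0.0489). NO/DM gave 0.56 (95% interval -0.02 to 1.14, limma adjusted p = 0.172) and DM/GS 0.51 (limma adjusted p = 0.312). RefSeq gives 2 starts for Mgmt, and the 150 bases before the first are shown because no other called gene that was higher had an adjusted p-value as small. The stretch holds 70.0% G or C and no CCAAT or E2F word.
Mgmt (GRCm38.p6, chr7:136894436-136894585, plus strand): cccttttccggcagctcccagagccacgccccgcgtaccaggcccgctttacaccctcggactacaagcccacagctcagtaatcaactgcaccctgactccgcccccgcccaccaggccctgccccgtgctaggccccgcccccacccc

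Xrcc1, the scaffold that gathers ligase and polymerase at single-strand breaks, was steady in GS and DM and spread widely in NO. Xrcc1 (ENSMUSG00000051768, GRCm38 chromosome 7, 24546289 to 24573440, plus strand) had 2082, 1994 and 1699 in GS, 2050, 2142 and 2107 in DM and 2275, 5189 and 3219 in NO. Replicate 1 of NO was close to the DM values and replicate 2 far above them. NO/GS gave 0.81 ± 0.24 (limma adjusted p = 0.0325). Without the replicate 2 library of NO it was 0.50 (limma adjusted p = 0.0626), and the call was also lost without any 1 GS library or NO replicate 3. The same held with a correction for GC content, without the mean-variance trend and with only the 6 samples compared fitted. The same NO libraries rank in the same order in the summed p53 targets, at 37393, 81151 and 49512 for replicates 1, 2 and 3. The summed primitive endoderm markers (200, 539 and 287) and trophoblast markers (1203, 2101 and 1574) also rank in this order. Summed pluripotency markers rank in the reverse order (79008, 47015 and 76590). The part of these differences was not tested.

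Parp1 went the other way between DM and NO. Parp1 (ENSMUSG00000026496, GRCm38 chromosome 1, 180568924 to 180601254, plus strand) had 15248, 16426 and 15969 in GS, 20772, 20095 and 18067 in DM and 15266, 9790 and 13109 in NO. DM lay above all other samples, and replicate 2 of NO was the lowest. NO/DM gave -0.65 ± 0.17 (limma adjusted p = 0.028), held in 12 of 21 alternatives. It was lost without the replicate 2 library of NO (-0.47, limma adjusted p = 0.0695) and also without DM replicate 1, DM replicate 2 or NO replicate 3. Quantile normalisation and equal totals ended the call too, as did leaving out the minimum mean or the mean-variance trend, or fitting only the 6 samples compared. The mismatch repair genes Msh6 and Pms2 ranged from 12487 to 20658 and from 834 to 1091 and were not called. All NO values of Msh6 lay below all GS and DM values, with -0.30 in both comparisons.

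Single libraries decided several of these counts, and the number of all genes called moved with them. In NO/GS the number of members called, 5 with all libraries, was 0 without GS replicate 3, 1 without GS replicate 2 or NO replicate 3, 3 without GS replicate 1 or NO replicate 2, and 9 without NO replicate 1. The share of all genes called in NO/GS was 11.3% without GS replicate 3, 11.8% without GS replicate 2, 12.8% without GS replicate 1 or NO replicate 3, 13.5% without NO replicate 2 and 27.5% without NO replicate 1, where the 9 members were 23.1%. In NO/DM, 3 with all libraries, it was 0 without DM replicate 1, DM replicate 2, NO replicate 2 or NO replicate 3. It was 1 without GS replicate 2 or DM replicate 3, and 9 (23.1%) without NO replicate 1, where 23.8% of all genes were called. Without any 1 of the other NO or DM libraries, 6.33% to 7.74% of all genes were called in NO/DM, and 10.3% without GS replicate 2. In DM/GS it was 2 (5.13%) without DM replicate 2, against 3.79% of all genes. It was 3 (7.69%) without NO replicate 2, against 10.6% of all genes, and 1 without any other library. Calls at 2-fold in NO/GS were 0 without GS replicate 3, NO replicate 2 or NO replicate 3 and 2 without NO replicate 1, and in NO/DM 1 without NO replicate 1. The F test called 12 members without NO replicate 1, 3 without NO replicate 2 and 1 without NO replicate 3. It called 2, 1 and 1 without GS replicates 1, 2 and 3, and 2, 3 and 4 without DM replicates 1, 2 and 3.

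The remainder of the repair and checkpoint machinery was read from 81 further genes, all of them tested. In DM/GS 1 was called, Dna2, a nuclease of long-range resection, lower by -0.49 (limma adjusted p = 0.0414). In NO/GS 5 were higher and 2 lower. Mus81, the nuclease that cuts stalled forks and joint molecules, rose from 579, 604 and 525 in GS to 829, 1749 and 1258 in NO (1.10 ± 0.23, limma adjusted p = 0.0066). It was also higher in NO/DM (0.93, limma adjusted p = 0.0213), and both calls held without NO replicate 2.

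The bypass polymerase Polk had 570, 628 and 721 in GS, 573, 582 and 392 in DM and 883, 1719 and 1033 in NO. All NO values lay above all others, by 0.87 relative to GS (limma adjusted p = 0.0266) and 1.19 relative to DM (limma adjusted p = 0.0102). The end joining factor Nhej1 was higher in NO/GS (0.92, limma adjusted p = 0.0365), as were the glycosylases Neil3 (0.67, limma adjusted p = 0.0202) and Nthl1 (0.45, limma adjusted p = 0.0487). The recombination accessory factor Sfr1 (-0.53, limma adjusted p = 0.0401) and the ATR activator Etaa1 (-0.74, limma adjusted p = 0.0395) were lower.

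In NO/DM 2 of the 81 genes were higher, Mus81 and Polk, and 3 were lower. The latter were the replicative ligase Lig1 (-0.64, limma adjusted p = 0.012), the end-binding protein Ku70 encoded by Xrcc6 (-0.75, limma adjusted p = 0.0392) and the uracil glycosylase Ung (-0.62, limma adjusted p = 0.041). With replicate number as a block Ung was at an adjusted p = 0.0538 in limma. Without NO replicate 1, the number of the 81 genes called was 18 in both NO comparisons and 3 in DM/GS. It was 4, 2 and 3 without NO replicate 2 in DM/GS, NO/GS and NO/DM. Without any 1 GS library it was 1 or 2 in NO/GS, 3 in NO/DM and 0 in DM/GS. Without NO replicate 3 it was 0 in DM/GS, 3 in NO/GS and 2 in NO/DM. Without any 1 DM library it was 0 in DM/GS and 2 or 3 in NO/DM, and 4 in NO/GS without DM replicate 1. Leaving out 1 library ended every call of the 81 genes except Mus81 in NO/GS and Polk and Lig1 in NO/DM. The median log2 fold changes of the 81 genes were -0.03, -0.12 and -0.07 in DM/GS, NO/GS and NO/DM.

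Genes of DNA synthesis and division, with which many recombination genes are co-expressed, were called rarely. Of 24 such genes, 1 was higher in DM/GS, the S phase regulator E2f2 (0.83, limma adjusted p = 0.00728), and 0 were called in NO/GS by limma, with 0 at an unadjusted p-value under 0.05. In NO/DM 2 were lower, the cyclin Ccne1 (-0.82, limma adjusted p = 0.0402) and E2f2 (-0.62, limma adjusted p = 0.0239). Without the replicate 2 library of NO neither was called, Ccne1 at -0.50 (limma adjusted p = 0.0828) and E2f2 at -0.49 (limma adjusted p = 0.0633). Of 21 alternatives, the call held in 8 for Ccne1, between -1.07 and -0.50, and in 14 for E2f2. Without NO replicate 3 or any 1 DM library neither was called, and without any 1 GS library only E2f2 was called. In DM/GS 2 genes of the list were higher without NO replicate 2. Their median in NO/GS was -0.14. By contrast, of 13 p53 targets 10 were higher in NO/GS and 8 in NO/DM, with medians of 0.91 and 1.12. Without the replicate 2 library of NO, 8 were higher in NO/GS and 6 in NO/DM, with medians of 0.67 and 0.62. In NO/GS 6 were higher without GS replicate 1 or GS replicate 2. The antigen peptide transporter Tap1 went from 51 to 89 in GS to 573, 2707 and 1082 in NO (4.12, limma adjusted p = 0.000438). The antiproliferative gene Btg2 rose by 1.72 (limma adjusted p = 0.0019) and the stress gene Sesn2 by 0.79 (limma adjusted p = 0.00886) in NO/GS. In NO/DM, the cyclin gene Ccng1 rose by 1.36 (limma adjusted p = 0.00375). In DM/GS 1 was lower, the cell cycle inhibitor Cdkn1a (-1.15, limma adjusted p = 0.0071). Cdkn1a was called higher in NO/DM (1.13), but its -0.02 in NO/GS was the lowest of the 13 and was not called.

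**Figure D4:**
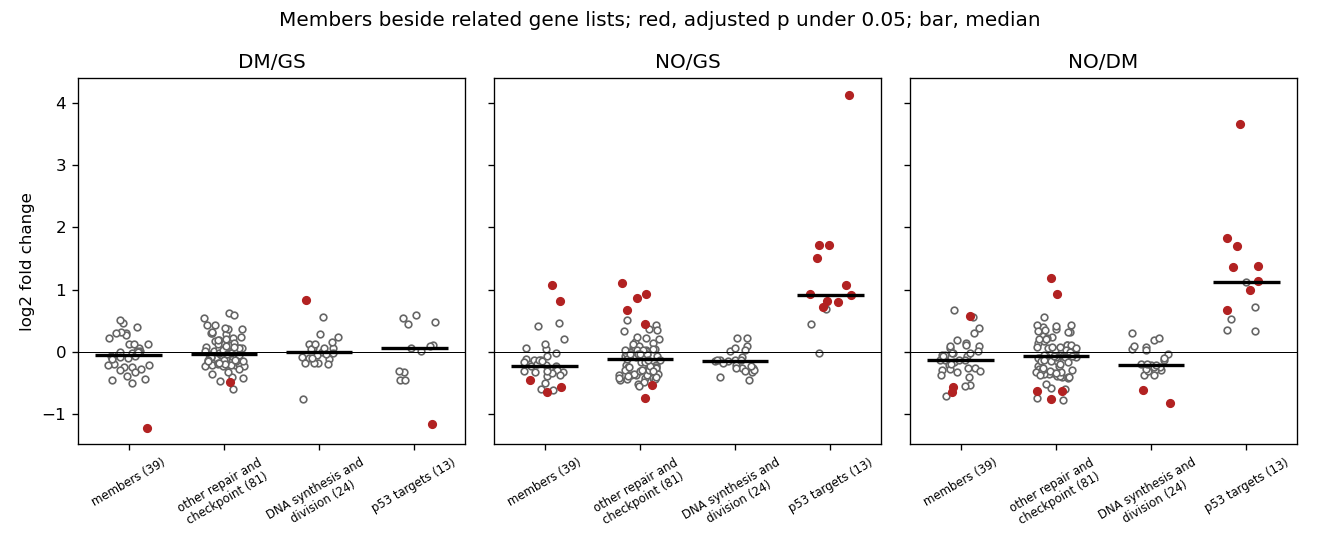
Log2 fold changes (y axis) of the 39 genes, 81 other repair and checkpoint genes, 24 genes of DNA synthesis and division and 13 p53 targets (x axis) in each comparison. Each circle is a gene, red circles have an adjusted p-value under 0.05 and bars are medians. The medians of the first 3 lists lie between -0.22 and 0 in every comparison, while the p53 targets lie at 0.91 and 1.12 in the comparisons of NO with GS and DM.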

How the data were processed

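Total RNA-Seq values from mESC in GS, DM and NO (3 samples each) were taken from 1 deposited table, and groups and replicate numbers from the titles and medium labels. Per the submitters' processing notes and the study methods, the authors aligned reads with STAR 2.4.0a to GRCm38, counted them per gene with featureCounts 1.4.5-p1 and normalised with DESeq2, and the values deposited by the authors are a score in the sense of normalised counts rounded to whole numbers, so that a count model was not used here. Depth was estimated from the steps between low values, and such rounding limits low values. No sample pair held identical values. The members and lists were chosen with earlier results of these data known. 1 gene of the lists beside the members is not reported here.

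Genes with a mean above 5 were tested with limma 3.58.1 in R 4.3.3 on log2(value + 1), with all 9 samples in 1 fit, a mean-variance trend and no covariate. P-values were adjusted over 18156 genes, at a threshold of 0.05, and 2-fold was added as a further criterion. Adding 1 understates fold changes of low genes. The test was checked on simulated data in which all genes shared the same spread setting and no library stood apart. That check does not cover changes under 2-fold or a deviating library such as replicate 2 of NO. P-values measure the spread between these dishes of 1 line. Members called in any comparison were described with their values, and of other lists up to 3 genes per comparison and direction with the smallest adjusted p-value. Deviations of NO and DM samples of the same number had weak positive correlations (0.159, 0.167 and 0.296). Those of DM and GS (-0.178, 0.022, -0.232) and NO and GS (-0.046, 0.05, -0.106) were not all positive. Correlations between samples of different number were not examined for comparison, so a pairing is not established. The block by replicate number was weighed for NO/DM as an alternative. Gene positions and exon lengths came from GENCODE M21 (GRCm38) and promoters from RefSeq. Alternatives covered pseudocount, minimum mean, normalisation, trend, weights, block, samples fitted, each sample left out and, chosen after seeing the data, GC content.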

Additional observations from a re-analysis of the deposited data

How the results depend on the processing

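Over 21 alternative analyses, 64 single-gene results were followed: members with an unadjusted limma p-value under 0.05, and other listed genes that were called. They gave 1344 values, of which 0 reversed, 1098 kept their side of the threshold, 215 lost a call and 31 gained one. Results picked in this way and refitted on mostly the same samples had little room to reverse. The cause of the lost and gained calls was not tested. Members called numbered 1 to 3 in DM/GS, 0 to 9 in NO/GS and 0 to 9 in NO/DM when 1 sample was left out. With the 2-fold criterion they numbered 0 to 2 in NO/GS and 0 to 1 in NO/DM, and the F test called 1 to 12. The 81 other repair genes gave 0 to 4 calls in DM/GS, 1 to 18 in NO/GS and 2 to 18 in NO/DM.

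With the GC correction, chosen after seeing the data, member calls were 2 in DM/GS, 8 in NO/GS and 6 in NO/DM, and those of the other repair genes 2, 12 and 10. With the GC correction and the replicate block, member calls were 6 in NO/DM, and those of the other repair genes 11 in NO/GS and 12 in NO/DM. With either GC correction and with quantile normalisation, 0 members were called at 2-fold in NO/GS. With the replicate block alone, member calls were 1 in DM/GS, 4 in NO/GS (Nbn was lost, adjusted p = 0.0622 in limma) and 3 in NO/DM, the F test called 4, and the other repair genes gave 0 in DM/GS. For NO/DM the block ended no other call of a gene named here than that of Ung. Calls gained under the block were not followed for single genes outside the members. Of 13 p53 targets, 9 were higher in NO/DM with the block, against 8 without it. Without the trend, member calls were 2 in NO/GS and 0 in NO/DM, the F test called 1, and the other repair genes gave 0, 2 and 2. Fitting only the 6 samples compared gave 2 member calls in DM/GS and 0 in NO/DM, and 4, 4 and 2 among the other repair genes. Equal totals gave 1 member call in NO/DM. Quantile normalisation gave 4 in the F test, and 0 and 3 other repair genes in DM/GS and NO/GS. Without a minimum mean the F test called 3, and the other repair genes gave 0, 3 and 3.

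Depth was only estimated, rounding limits low values, and 3 samples per medium limit the precision.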
